A study of Rattus norvegicus with 18 samples.

Results

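Collagen genes were followed in proximal nerve segments of the rat, which after the cut remain on the spinal side of the sciatic nerve. Every non-control probe whose gene name in the scanner files was Col, a number, a and a number was taken, and each gene was represented by its brightest probe over the 18 arrays. This gave 34 collagen genes, carried by 48 probes, out of 35287 gene names on the array. By the class of their protein, 11 were fibrillar, 7 belonged to the basement membrane and 16 were of other kinds. Adult male Sprague-Dawley rats had a piece of the left sciatic nerve resected at mid-thigh, and proximal segments were taken 0, 0.5, 1, 3, 6 and 9 h later. Each time-point was measured on 3 arrays, all animals, those of 0 h included, were anaesthetized and operated on in the same way, and the 0 h segments served as the control. The sources do not state whether an array held RNA of 1 rat or of a pool, so the P-values measure the spread between these arrays.

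A collagen molecule is a triple helix of 3 chains in which glycine recurs as the first residue of a repeated triplet. Fibrillar collagens are secreted as procollagens, trimmed at both ends and cross-linked into the fibrils of the epineurium, perineurium and endoneurium, where fibroblasts are a main source. Type IV collagen forms the sheet of the basement membrane that each Schwann cell (SC) and its axons lie in, and other collagens link fibrils, membranes and cells.

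Levels are given as the log2 processed signal less the 75th percentile of the array, so that 0 is the level of a probe at that percentile. A call, in limma's F-test of all 6 time-points or in a contrast between a pair of them, needed an unadjusted P-value under 0.01 with a Benjamini-Hochberg adjusted P-value under 0.05 over all 32111 probes tested. Of the 34 collagen genes, 32 were tested. Col11a1, a minor fibril chain, was well above background on 5 of 18 arrays and Col17a1, a transmembrane collagen of epithelia, on 1 of 18, so neither was tested and no change is given for them. The tissue was checked against the SC markers Sox10 and S100b, which were well above background on all 18 arrays. The headers place the 0 h and 0.5 h arrays on 1 scan day, all later arrays but 1 on another, and 9 h replicate 3 alone on the third. Scan day and time-point therefore cannot be told apart when 0 h is compared with 1 h or any later time-point, whereas 0.5 h against 0 h and 6 h against 1 h each lie within a scan day. Of the 32 collagen genes, 11 were highest on 1 h replicate 3 and 11 were lowest on 9 h replicate 3. The same count was not made over all gene names, so it cannot be read as particular to collagens.

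Of the collagen genes called at 6 h and 9 h, most were lower than at 0 h. In the F-test 18 of the 32 were called, where 34.8% of the 27202 gene names tested were called. Fibrillar genes made up 9 of the 18, from 10 tested. At 9 h, 13 collagen genes were lower than at 0 h, beside 15.2% of all gene names, and 4 were higher, beside 16.0%. At 6 h, 10 were lower, beside 12.7%, and 2 were higher, beside 12.3%. Before that few collagens were called. At 3 h, 3 were lower and 1 was higher, beside 6.44% and 7.55% of gene names, and at 1 h, 1 was lower and 0 were higher, beside 1.98% and 3.74%. The 0.5 h time-point had 4 lower and 0 higher, beside 1.72% and 4.37%. The lower genes were Col4a5, Col9a1 and Col9a2 at 3 h and Col4a5 at 1 h, and the higher one at 3 h was Col7a1. For these 2 counts of 0, limma's unadjusted P-value was under 0.05 for 4 genes with a higher mean at 1 h and for 3 at 0.5 h. Within the second scan day, 13 collagen genes were lower at 6 h than at 1 h, beside 12.7%, and 1 was higher, beside 11.4%. Without 1 h replicate 3 those counts were 9 and 1, beside 12.3% and 9.73% of all gene names. Without 6 h replicate 1 they were 9 and 0, beside 11.4% and 9.02%. Without 9 h replicate 3 the counts at 9 h were 11 lower and 2 higher, beside 12.2% and 12.1%. The 4 calls at 3 h became 2 without 0 h replicate 2 and 1 without 0 h replicate 3 or 3 h replicate 2. In those 3 h fits 8.02%, 10.3% and 7.29% of all gene names were called in either direction.

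The classes are described here by counts and medians, with no test between them. At 0.5 h the calls were 3 of 7 basement membrane genes and 1 of 15 others, all lower, with 0 of 10 fibrillar genes called by limma and 1 of them at an unadjusted P-value under 0.05. At 6 h 5 of 10 fibrillar genes were lower, 2 of 7 basement membrane genes were lower, and of 15 others 3 were lower and 2 higher. At 9 h 8 of 10 fibrillar genes were lower, while 2 of 7 basement membrane genes were lower and 1 higher, and of 15 others 3 were lower and 3 higher. The median log2 change of the 10 fibrillar genes against 0 h was -0.08, 0.14 and -0.09 after 0.5, 1 and 3 h, and then -0.42 at 6 h and -0.52 at 9 h. For the 7 basement membrane genes it was -0.35, -0.09, -0.10, -0.08 and -0.16 at the same time-points. In the 15 other genes it was 0.05, 0.05, -0.05, -0.28 and -0.06, with single genes far to both sides. Over all 27202 gene names the median stayed between 0.00 and 0.02. Between 1 h and 6 h the fibrillar median was -0.55, the basement membrane median 0.03 and the median of the others -0.33, beside -0.05 over all gene names. Without 6 h replicate 1 the basement membrane median of that contrast was -0.29, and leaving out 1 h replicate 3 or 6 h replicate 2 also brought it below 0, to -0.11 and -0.03. The median of the others was -0.16 without 1 h replicate 3 and -0.56 without 1 h replicate 2. The basement membrane median was -0.35 at 6 h without 6 h replicate 1 and -0.45 at 9 h without 9 h replicate 3.

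**Figure D1:**
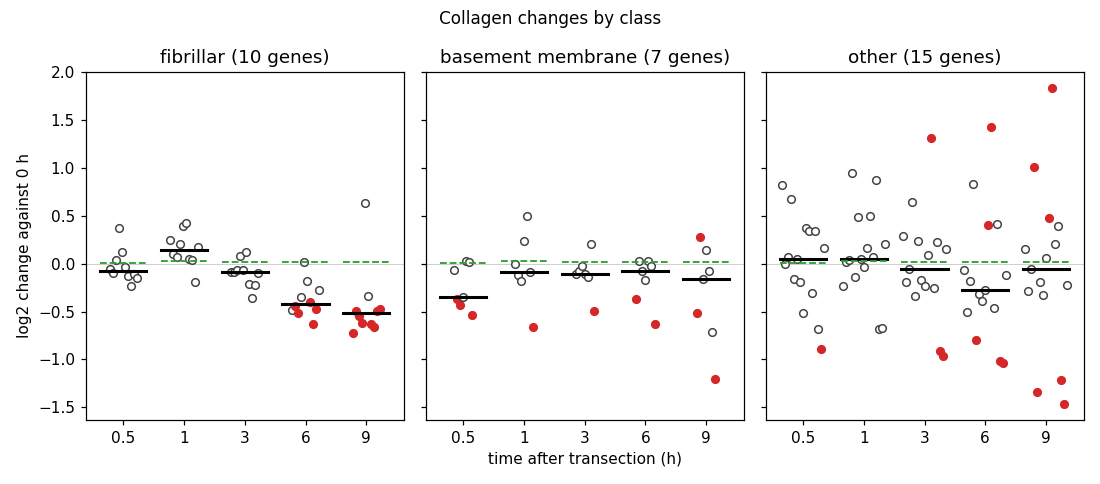
Log2 change against 0 h (vertical axis) of each tested collagen gene at 5 time-points after transection (horizontal axis, h), in 3 panels by class. Filled red points were called and open points were not, the black bar is the median of the class and the dashed green bar the median over all gene names. Fibrillar genes gathered between -0.34 and -0.72 at 9 h except Col27a1 at 0.64, whereas the other collagens spread from -1.47 to 1.84.

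The size of the fibrillar fall depended on how the arrays were scaled. The deposited matrix of log2 values holds the same distribution on every array, as quantile normalization gives, and on that scale the fibrillar median was -0.13 at 6 h and -0.25 at 9 h. Quantile normalization of the processed signal gave -0.15 and -0.28, with 1 fibrillar gene called lower at 6 h in place of 5 and 3 in place of 8 at 9 h, beside 14.1% and 16.7% of all gene names called lower on that scale. With each array shifted to its median instead, the values were -0.57 and -0.70, and 5 and 9 genes were called lower, beside 17.0% and 20.9% of all gene names, but there the median over all gene names at 9 h was itself -0.16. Normexp background correction left the medians at -0.40 and -0.52 but called 0 and 1 of them, where 2.73% and 4.68% of all gene names were called lower. The fibrillar probes were bright, and 8 of 10 lay in the brightest sixth of the gene names, whose own median change at 9 h was -0.15. In that sixth 29.1% of gene names were called lower at 9 h. All of these settings gave a fibrillar median below 0 at 6 h and at 9 h. The basement membrane median, -0.08 at 6 h and -0.16 at 9 h as given above, was -0.16 and -0.36 under quantile normalization and also -0.16 and -0.36 in the deposited matrix, so on those 2 scales it lay below the fibrillar median and the order of the classes turned. On both scales the genes called lower were 1 fibrillar, 1 basement membrane and 3 other at 6 h, and 3 of each class at 9 h. In the deposited matrix 3809 of the 27202 gene names were called lower at 6 h and 4496 (16.5%) at 9 h. Of the 32 collagen genes 21.9% were called in either direction at 6 h on both scales, a share below that of all gene names (24.6% and 24.5%), whereas at 9 h 37.5% were called beside 30.3% and 30.1%.

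**Figure D2:**
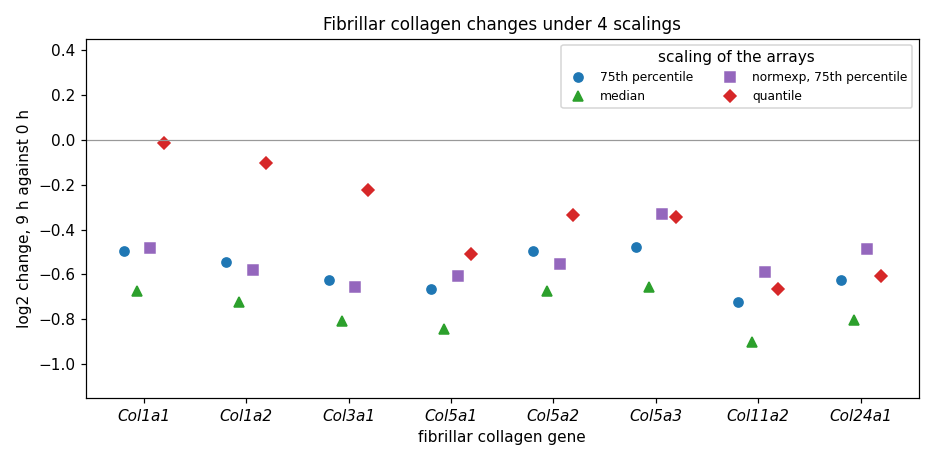
Log2 change between 9 h and 0 h (vertical axis) of the 8 fibrillar collagen genes called at 9 h (horizontal axis), under 4 ways of scaling the arrays. Every point lay below 0, but the quantile values of Col1a1, Col1a2 and Col3a1 were -0.02, -0.10 and -0.22.

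Type I and type III collagens are the chief fibril formers of nerve connective tissue, and both fell at 6 h and 9 h. Col1a1, the chain that supplies most of each type I molecule, had log2 levels of 8.58, 8.64 and 8.65 at 0 h, 8.55, 8.53 and 8.49 after 0.5 h and 8.86, 8.65 and 8.67 after 1 h. They were 8.61, 8.66 and 8.34 after 3 h, 8.26, 8.14 and 8.16 after 6 h and 8.13, 8.20 and 8.06 after 9 h. All 6 arrays of 6 h and 9 h lay below all other arrays. The change was -0.44 ± 0.09 (SE) at 6 h and -0.49 ± 0.09 at 9 h, with limma adjusted P-values of 0.00324 and 0.00114. Quantile normalization ended both calls.

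Col1a2, the partner chain of type I, had log2 levels of 8.21, 8.35 and 8.36 at 0 h, 8.29, 8.51 and 8.24 after 0.5 h and 8.36, 8.35 and 8.42 after 1 h. After 3 h they were 8.42, 8.33 and 7.98, after 6 h 7.76, 7.84 and 7.77 and after 9 h 7.77, 7.86 and 7.66. Again the 6 h and 9 h arrays were below every other array, 3 h replicate 3 being the nearest. The log2 change was -0.52 ± 0.11 at 6 h and -0.54 ± 0.11 at 9 h (limma adjusted P-values 0.00378 and 0.00216), and quantile normalization ended both calls. Col3a1, the chain of type III collagen, had log2 levels of 8.98, 8.98 and 8.94 at 0 h, 8.83, 8.83 and 8.85 after 0.5 h, 8.97, 9.03 and 9.05 after 1 h and 8.80, 8.88 and 8.57 after 3 h. It fell to 8.52, 8.61 and 8.57 after 6 h and 8.12, 8.33 and 8.56 after 9 h. The arrays of 9 h spread more than those of 0 h but did not overlap them. Its log2 change was -0.40 ± 0.10 at 6 h and -0.63 ± 0.10 at 9 h (limma adjusted P-values 0.0121 and 0.00053), not called with quantile normalization.

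**Figure D3:**
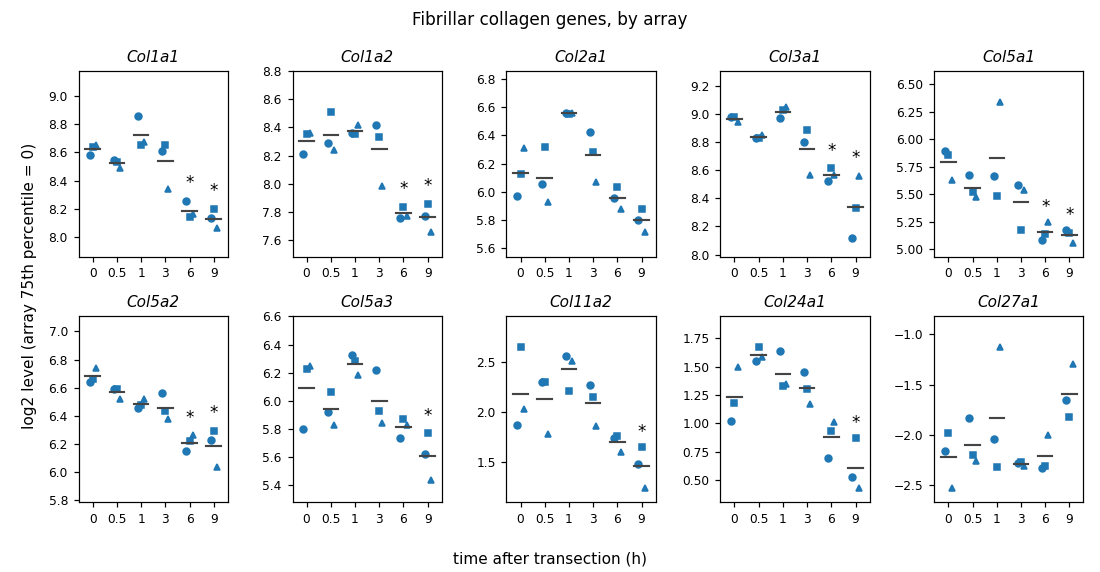
Log2 levels (vertical axis, 75th percentile of the array at 0, a separate range for each gene) of the 10 tested fibrillar collagen genes by time after transection (horizontal axis, h). Circles, squares and triangles are replicates 1, 2 and 3, bars are means of 3 arrays, and an asterisk marks a call against 0 h. For Col1a1 and Col1a2 every array of 6 h and 9 h was below every array of 0 h, and the 9 h arrays of Col27a1 lay above its 0 h arrays.

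The array carried 3 probes for Col1a1, and they differed at the early time-points. The brightest lay at chr10:83638177-83638236 of the rn4 build, and the other 2 lay upstream of it on the same strand, at chr10:83637903-83637962 and chr10:83637956-83638015. The latter ends in the stop codon, shown in capitals, so it reads the last codons of the propeptide that is cut from the carboxyl end. Both are printed because they gave a different early result.
Col1a1, upstream probe: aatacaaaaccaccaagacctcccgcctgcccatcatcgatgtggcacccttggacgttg
Col1a1, probe at the stop codon: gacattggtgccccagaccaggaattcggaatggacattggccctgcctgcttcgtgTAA
At 0.5 h the log2 change of these 2 probes was -0.54 and -0.50 (limma adjusted P-values 0.0183 and 0.0238), and at 3 h it was -0.46 and -0.45 (0.0185 and 0.0201). The brightest probe was not called at either time-point, with -0.10 at 0.5 h and -0.09 at 3 h. By 9 h all 3 probes were called lower, at -0.49, -0.63 and -0.75, so the time at which Col1a1 first fell depended on the probe.

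Type V chains sit inside type I fibrils and set their diameter, and all 3 measured were called lower at 9 h, of which quantile normalization and the deposited matrix left only Col5a2. Col5a1 had log2 levels of 5.90, 5.85 and 5.63 at 0 h, 5.68, 5.52 and 5.47 after 0.5 h, 5.66, 5.48 and 6.34 after 1 h and 5.58, 5.18 and 5.54 after 3 h. They were 5.09, 5.14 and 5.24 after 6 h and 5.17, 5.15 and 5.06 after 9 h. The highest value of all was on 1 h replicate 3, and the 6 h and 9 h arrays did not overlap those of 0 h. Its log2 change was -0.64 ± 0.18 at 6 h and -0.66 ± 0.18 at 9 h (limma adjusted P-values 0.0174 and 0.011). A dimmer second probe gave -0.66 at 6 h and -0.48 at 9 h, the latter not called (limma adjusted P-values 0.023 and 0.0674). Leaving out 0 h replicate 1 ended both calls of the brightest probe, and leaving out 0 h replicate 2 or 6 h replicate 1 ended the one at 6 h. Col5a2 had log2 levels of 6.64, 6.66 and 6.74 at 0 h, 6.59, 6.59 and 6.52 after 0.5 h, 6.45, 6.47 and 6.52 after 1 h and 6.56, 6.43 and 6.37 after 3 h. At 6 h they were 6.15, 6.22 and 6.26 and at 9 h 6.23, 6.30 and 6.04. Every later array lay below every 0 h array, and the change was -0.47 ± 0.08 at 6 h and -0.49 ± 0.08 at 9 h (limma adjusted P-values 0.000975 and 0.000502). Col5a3 went from 5.80, 6.22 and 6.24 at 0 h to 5.62, 5.77 and 5.44 after 9 h, just without overlap. It was called at 9 h, at -0.48 ± 0.13 (limma adjusted P-value 0.0139), and not without 0 h replicate 2, 0 h replicate 3 or 9 h replicate 3.

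Col11a2 and Col24a1 were called against 0 h at 9 h but not before. Col11a2, a chain of the type XI fibril core, had log2 levels of 1.87, 2.65 and 2.03 at 0 h, 2.30, 2.30 and 1.78 after 0.5 h, 2.56, 2.21 and 2.51 after 1 h and 2.27, 2.15 and 1.86 after 3 h. Then it had 1.74, 1.76 and 1.60 after 6 h and 1.48, 1.65 and 1.25 after 9 h. Both late groups were below all 0 h arrays, with 0 h replicate 2 well above its group. The change was -0.48 ± 0.20 at 6 h, not called, and -0.72 ± 0.20 at 9 h (limma adjusted P-values 0.0923 and 0.0134). Without 0 h replicate 2 or 9 h replicate 3 the 9 h call was lost. Col24a1, a fibrillar collagen known from bone and cornea, had log2 levels of 1.03, 1.18 and 1.49 at 0 h, 1.55, 1.67 and 1.59 after 0.5 h, 1.64, 1.33 and 1.35 after 1 h and 1.45, 1.30 and 1.17 after 3 h. Its values were 0.70, 0.94 and 1.01 after 6 h and 0.53, 0.87 and 0.43 after 9 h. The arrays of 0.5 h were all above those of 0 h and those of 6 h and 9 h all below, and the 9 h change was -0.62 ± 0.15 (limma adjusted P-value 0.00519).

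Col2a1, best known as the fibril chain of cartilage, had its 3 highest arrays at 1 h. Its 3 arrays of 1 h had log2 levels of 6.56, 6.55 and 6.56, all above the 0 h values of 5.97, 6.13 and 6.31. The change at 1 h was 0.42 ± 0.12 and missed the call (limma adjusted P-value 0.0537), but the change from 1 h to 6 h, -0.60 ± 0.12, was called (limma adjusted P-value 0.00237). A much dimmer second probe of the gene gave -0.15 between 1 h and 6 h (limma adjusted P-value 0.794). Col27a1 was the 1 fibrillar gene with a mean above 0 h at 9 h, at 0.64 ± 0.25, and was not called (limma adjusted P-value 0.0626). Its 9 h levels were -1.65, -1.82 and -1.29, above the 0 h levels of -2.17, -1.98 and -2.53, and the highest of all was 1 h replicate 3. In the contrast of 6 h with 1 h, within 1 scan day, 9 of 10 fibrillar genes were called lower, all but Col27a1, with changes from -0.27 for Col5a2 to -0.72 for Col11a2. Quantile normalization left 3 of these 9 calls and turned the sign for Col3a1, and a shift to the median ended the calls of Col5a2, Col5a3, Col11a2 and Col24a1. These 4 were also the ones that single arrays decided. The calls of Col5a2 and Col11a2 were lost without 1 h replicate 3, and Col5a2 also without 1 h replicate 2, 6 h replicate 1 or 6 h replicate 2. Without 1 h replicate 1, Col5a3, Col11a2 and Col24a1 were not called, nor was Col5a3 without 1 h replicate 2, Col5a3 and Col24a1 without 6 h replicate 1, or Col5a3 and Col11a2 without 6 h replicate 3. Without 1 h replicate 3 the fibrillar median of that contrast was -0.53 in place of -0.55. With scan day as a term, 9 h could be set against 1 h, and there Col3a1 was at -0.79 ± 0.10 and Col1a1 at -0.56 ± 0.10 (limma adjusted P-values 0.000184 and 0.00223), whereas Col5a2 was at -0.22 ± 0.08 and not called (limma adjusted P-value 0.0684). As 9 h replicate 3 was alone on its scan day, these values rest on the other 2 arrays of 9 h.

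Markers of other cell types gave the following values beside the fibrillar genes. Marker counts here and below are to be read beside all gene names, of which 15.2% were lower and 16.0% higher at 9 h. Between 1 h and 6 h the shares were 12.7% lower and 11.4% higher. Of 12 fibroblast markers listed, 10 were tested, and Tcf21 was well above background on 3 of 18 arrays. For each marker list the summed log2 level is the log2 of the sum of its unlogged levels, in which the brightest markers weigh most. The summed log2 level of these 10 was 9.19 to 9.21 on the 0 h arrays and 9.21 to 9.36 at 0.5 h. It was 9.12 to 9.28 at 1 h, 9.06 to 9.35 at 3 h, 8.89 to 8.96 at 6 h and 8.73 to 8.92 at 9 h. Of the 10, 3 were lower at 9 h (Dcn and Lum, both collagen-binding proteoglycans, and Mfap5), 1 was higher (Ly6c, lost without 0 h replicate 1, 0 h replicate 2, 9 h replicate 1 or 9 h replicate 3), and the defining receptor Pdgfra was not called, at 0.28 ± 0.11, except without 9 h replicate 2. Between 1 h and 6 h, where the fibrillar median was -0.55, 0 fibroblast markers were lower and 2 were higher, with a median log2 change of -0.02. Of 11 SC markers described here, 3 (Mag, Pmp22 and Cdh19) were lower and 0 higher at 9 h, with a median of -0.13. Between 1 h and 6 h 6 of the 11 were lower (Mag, Egr2, Cnp, Mbp, Prx and Pmp22) and 0 higher, with a median of -0.43. Their summed log2 level was 9.13 to 9.31 at 0 h, 9.21 to 9.59 at 1 h, 8.87 to 8.94 at 6 h and 8.78 to 8.96 at 9 h. The call of Pmp22 in that contrast was lost when any 1 of 15 arrays was left out, that of Mbp without 1 h replicate 3, 6 h replicate 1 or 6 h replicate 2, and that of Cdh19 at 9 h without 9 h replicate 3. These 11 were taken from 13 tested, and over all 13 both medians were further below 0.

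Neutrophil markers were called from 0.5 h on. Their summed log2 level was -1.41 to -0.70 at 0 h, 1.07 to 2.20 at 0.5 h, 2.96 to 4.54 at 3 h and 4.19 to 4.46 at 9 h. Of 7 tested, 3 were called higher at 0.5 h and 6 at 3 h and 9 h, beside 4.37%, 7.55% and 16.0% of all gene names. Perineurial markers had a summed level of 7.84 to 8.09 at 0 h, 7.46 to 7.50 at 6 h and 7.10 to 7.51 at 9 h. Both late groups lay below the 0 h arrays. Of 6 tested, 3 were lower and 2 higher at 9 h, with a median log2 change of -0.205. For endothelial markers the sum was 6.19 to 6.26 at 0 h, 5.83 to 6.06 at 6 h and 5.84 to 5.92 at 9 h, again without overlap. There 3 of 11 were lower and 1 higher at 9 h, with a median of -0.09. The macrophage sum was 4.77 to 4.88 at 0 h, 4.92 to 5.38 at 6 h and 5.32 to 5.68 at 9 h, with 2 of 7 higher, 1 lower and a median of 0.23 at 9 h. The 9 h sums of pericyte and smooth muscle, adipocyte and erythroid markers overlapped those of 0 h. The part of these cell types in the collagen changes was not tested. In whole nerve tissue fewer cells of a type and less RNA per cell cannot be told apart.

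Of the 7 basement membrane collagens, 3 were called lower at 0.5 h. Col4a1 and Col4a2, the chains of the common type IV network, are transcribed away from each other from a shared stretch. On the GRCr8 build RefSeq places the Col4a2 start at position 84885520 of chr16 on the minus strand and the Col4a1 start at 84885597 on the plus strand. The 76 bases between them, chr16:84885521-84885596, are shown on the plus strand since both genes start from them, with the letters GGGCGG, found here on the minus strand, in capitals.
Stretch between Col4a2 and Col4a1: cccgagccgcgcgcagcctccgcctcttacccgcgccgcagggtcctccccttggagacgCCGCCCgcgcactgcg
Col4a1 had log2 levels of 5.83, 6.11 and 6.03 at 0 h, 5.50, 5.63 and 5.55 after 0.5 h and 5.88, 5.93 and 5.62 after 1 h. They were 6.02, 6.05 and 5.85 after 3 h, 5.91, 6.05 and 5.79 after 6 h and 5.75, 5.85 and 5.91 after 9 h. Only the 0.5 h arrays lay wholly below 0 h. The 0.5 h change was -0.43 ± 0.11 (limma adjusted P-value 0.0345), and the gene was not called in the F-test. A dimmer second probe gave 0.07 at 0.5 h, and quantile normalization ended the call.

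Col4a2 had log2 levels of 1.39, 1.22 and 1.36 at 0 h, 1.15, 0.92 and 0.85 after 0.5 h and 1.43, 1.18 and 2.08 after 1 h. Later they were 1.25, 1.29 and 1.11 after 3 h, 1.09, 1.08 and 1.28 after 6 h and 1.43, 1.44 and 1.53 after 9 h. Its 0.5 h arrays also lay below those of 0 h, but the change of -0.35 ± 0.17 was not called (limma adjusted P-value 0.254). The highest array was 1 h replicate 3. Col18a1, the heparan sulphate collagen that releases endostatin, dipped at 0.5 h and rose at 9 h. Its log2 levels were 3.79, 3.99 and 3.88 at 0 h, 3.56, 3.54 and 3.47 after 0.5 h and 4.18, 3.99 and 4.33 after 9 h. The changes were -0.37 ± 0.09 and 0.28 ± 0.09 (limma adjusted P-values 0.0289 and 0.0276), and its second probe gave -0.51 and 0.33. The rise was small, its arrays met those of 0 h, and 19 of 31 alternatives lost it. The 4 calls at 0.5 h (Col4a1, Col4a5, Col18a1 and Col9a2) were lost when 0 h replicate 2 or 3, or any 1 array of 0.5 h, was left out. Quantile normalization left only the call of Col4a5 among them.

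Col4a5, a chain of the minor type IV network encoded on the X chromosome, was lower at every time-point after 0 h by its brightest probe, the one used here. Its log2 levels were 0.70, 0.82 and 0.98 at 0 h, 0.26, 0.34 and 0.31 after 0.5 h and 0.25, 0.37 and -0.11 after 1 h. They were 0.38, 0.23 and 0.42 after 3 h, 0.27, 0.33 and 0.02 after 6 h and -0.25, -0.50 and -0.34 after 9 h. No later array reached the lowest 0 h array, and the 9 h arrays lay below all the others. The change was -0.53 ± 0.13 after 0.5 h, -0.67 ± 0.13 after 1 h, -0.50 ± 0.13 after 3 h and -0.63 ± 0.13 after 6 h, all called by limma. Leaving out 0 h replicate 2 or 0 h replicate 3 ended the calls at 0.5 h and 3 h, and leaving out 3 h replicate 2 also ended the one at 3 h. At 9 h it reached -1.20 ± 0.13 (limma adjusted P-value 1.84e-05). A second Col4a5 probe, well above background on 12 of 18 arrays, went the other way throughout. Its log2 change was 0.87 after 0.5 h, 0.93 after 1 h, 0.74 after 3 h and 1.34 after 6 h (limma adjusted P-values 0.319, 0.263, 0.332 and 0.0551), and at 9 h it was called higher, at 1.53 (limma adjusted P-value 0.0254), so the direction of the gene depends on the probe. The partner chains Col4a3 and Col4a4 were dim, with mean levels below -3, and neither was called at any time-point. Col4a4 was at -0.71 ± 0.25 at 9 h, below all 0 h arrays, with an unadjusted P-value over the limit (limma adjusted P-value 0.0418).

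Among the brightest probes of the collagen genes, those of Col4a3 and Col4a5 were the most alike, with 33 of 47 overlapping bases identical (70.2%). Both are shown as the closest pair, with the shared bases in capitals. The Col4a5 probe lies at chrX:36919794-36919853 and the Col4a3 probe at chr9:82036908-82036967 of rn4.
Col4a5 probe: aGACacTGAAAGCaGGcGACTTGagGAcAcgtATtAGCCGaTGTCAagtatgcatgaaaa
Col4a3 probe: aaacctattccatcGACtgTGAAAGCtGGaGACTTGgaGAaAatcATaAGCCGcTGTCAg
The next closest pair, Col2a1 and Col6a3, shared 53.1%. The Col4a3 values, between -5.76 and -3.55 on single arrays, gave a 9 h log2 change of -0.08 ± 0.47 that was not called (limma adjusted P-value 0.915).

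Col15a1, which anchors the basement membrane to collagen fibrils in the endoneurium, was also lower at 6 h and 9 h. It had log2 levels of 5.77, 6.00 and 5.94 at 0 h, 5.93, 5.83 and 5.77 after 0.5 h, 5.95, 5.83 and 5.93 after 1 h and 5.83, 5.69 and 5.88 after 3 h. They fell to 5.49, 5.59 and 5.52 after 6 h and 5.42, 5.49 and 5.27 after 9 h, below every earlier array. The log2 change was -0.37 ± 0.09 at 6 h and -0.51 ± 0.09 at 9 h (limma adjusted P-values 0.0073 and 0.000717), and quantile normalization ended the first of these calls.

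**Figure D4:**
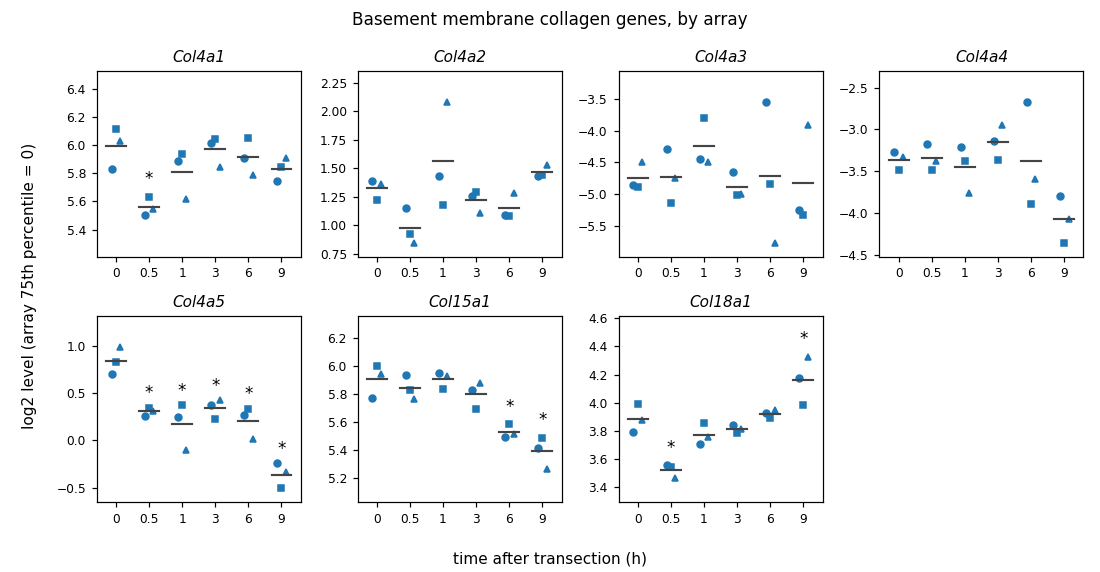
Log2 levels (vertical axis, 75th percentile of the array at 0, a separate range for each gene) of the 7 basement membrane collagen genes by time after transection (horizontal axis, h), drawn with the same symbols, bars and asterisks as the fibrillar genes. Col4a1 and Col18a1 dipped at 0.5 h, Col15a1 was lower at 6 h and 9 h, and Col4a5, by its brightest probe, was lower at each time-point.

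The other collagens held the largest movements in both directions. Col7a1, which builds the anchoring fibrils under epithelia, rose the most of the collagen genes. Its log2 levels were -2.86, -3.82 and -4.13 at 0 h, -2.88, -3.37 and -3.52 after 0.5 h and -3.35, -3.35 and -2.63 after 1 h. They rose to -2.52, -2.07 and -2.29 after 3 h, -1.89, -2.42 and -2.23 after 6 h and -1.68, -2.12 and -1.50 after 9 h, all 9 arrays being above the 3 of 0 h. The log2 change was 1.31 ± 0.31 after 3 h, 1.43 ± 0.31 after 6 h and 1.84 ± 0.31 at 9 h (limma adjusted P-values 0.0123, 0.00386 and 0.000542). The 3 h call was lost without 0 h replicate 2, 0 h replicate 3 or 3 h replicate 2, while the 9 h call held in all 30 alternatives run. Between 1 h and 6 h it was the 1 gene called higher, at 0.93 ± 0.31 (limma adjusted P-value 0.0375), a call that 14 of 31 alternatives lost. Its probe, at chr8:114002273-114002332 of rn4, is shown as the one that carried the rise. It reads an open frame of 20 codons, and the capitals mark the 9 that start with GA, which code for aspartate or glutamate.
Col7a1 probe: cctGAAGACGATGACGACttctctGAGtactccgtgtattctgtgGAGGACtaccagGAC

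Type IX collagen, a chain trio that decorates the surface of fibrils, fell in 2 of its 3 genes. Col9a1 had log2 levels of 1.39, 1.28 and 1.39 at 0 h, 0.92, 0.24 and 0.86 after 0.5 h, 0.89, 0.00 and 1.13 after 1 h and 0.51, 0.49 and 0.31 after 3 h. It had 0.43, 0.27 and 0.32 after 6 h and 0.18, 0.06 and 0.17 after 9 h. Every later array was below the 0 h arrays, and those of 0.5 h and 1 h scattered. The log2 change was -0.92 ± 0.23 after 3 h, -1.01 ± 0.23 after 6 h and -1.22 ± 0.23 at 9 h (limma adjusted P-values 0.0182, 0.00557 and 0.00137). Leaving out 0 h replicate 3, 3 h replicate 2 or 3 h replicate 3 ended the 3 h call, and the calls at 6 h and 9 h held in all 30 alternatives run. None of these alternatives could set 6 h or 9 h against 0 h with scan day as a term. Between 1 h and 6 h, within 1 scan day, Col9a1 changed by -0.33 ± 0.23 and was not called (limma adjusted P-value 0.315). Its probe reads the helix itself and spans spliced exons between chr9:22976816 and chr9:22982770 of rn4. The capitals mark its 6 whole glycine codons (GGN), each 9 bases from the next.
Col9a1 probe: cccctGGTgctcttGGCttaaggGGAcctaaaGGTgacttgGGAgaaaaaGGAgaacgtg
A glycine codon pattern every 9 bases along the whole probe was found in 5 of 41012 probes and in 1 of the 48 collagen probes, this one.

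Col9a2 had log2 levels of 3.79, 3.91 and 3.76 at 0 h, 3.05, 2.73 and 2.99 after 0.5 h and 3.45, 2.75 and 3.24 after 1 h. They were 3.34, 2.57 and 2.65 after 3 h, 3.02, 2.61 and 2.72 after 6 h and 2.31, 2.57 and 2.17 after 9 h. None of the 15 later arrays reached the 0 h arrays. The log2 change was -0.89 ± 0.21 after 0.5 h, -0.96 ± 0.21 after 3 h, -1.03 ± 0.21 after 6 h and -1.47 ± 0.21 at 9 h, all called, with a limma adjusted P-value of 0.000186 at 9 h. Between 1 h and 6 h Col9a2 changed by -0.36 ± 0.21 and was not called (limma adjusted P-value 0.229). Col9a3, the remaining chain, was not called by its brightest probe, at -0.22 ± 0.15 at 9 h. A dimmer second probe of Col9a3 was called lower between 1 h and 6 h, at -0.83 (limma adjusted P-value 0.00556), where the brightest gave -0.33. Of 8 cartilage and tendon markers, 1 (Cilp) was lower at 0.5, 1 and 3 h and 2 (Cilp and Tnmd) at 6 h and 9 h, the 3 early calls being lost without 0 h replicate 1 and each also without at least 1 other array, with a median log2 change of -0.08 after 0.5 h, 0.01 after 1 h and -0.41 after 9 h. Their summed log2 level over 8 markers was 4.09 to 4.92 at 0 h, 3.03 to 3.86 at 0.5 h, 3.13 to 3.40 at 1 h and 3.25 to 3.54 at 3 h. By 6 h it was 2.69 to 3.03, and by 9 h 2.07 to 2.58. At 9 h Tnmd was at -3.33 ± 0.58 and Cilp at -2.40 ± 0.29, while the cartilage marker Acan was well above background on 6 of 18 arrays and Comp was not called. The part of such tissue in the fall of Col9a1 and Col9a2 was not tested.

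Col22a1, a collagen of tissue junctions such as that of muscle and tendon, fell late. Its log2 levels were -0.25, -0.37 and -0.75 at 0 h, -0.55, -0.70 and -0.60 after 0.5 h and -0.74, -0.74 and -0.31 after 1 h. They were -0.68, -0.62 and -1.09 after 3 h, -1.01, -1.45 and -1.31 after 6 h and -2.01, -1.52 and -1.86 after 9 h. The 9 h arrays were below all 15 others, and the 6 h arrays were below those of 0 h. The log2 change was -0.80 ± 0.18 at 6 h and -1.34 ± 0.18 at 9 h (limma adjusted P-values 0.00563 and 0.000125). Between 1 h and 6 h Col22a1 changed by -0.66 ± 0.18, a call that was lost without 1 h replicate 3, 6 h replicate 2 or 6 h replicate 3. Skeletal muscle markers had a summed log2 level of 7.33 to 11.18 at 0 h and 2.76 to 7.69 at 9 h, a median log2 change of -3.68 with 0 of 12 called by limma and 0 of 12 at an unadjusted P-value under 0.05, and their part was not tested. Col23a1, a transmembrane collagen, had log2 levels of -0.98, -0.84 and -0.80 at 0 h, -0.47, -0.93 and -1.08 after 0.5 h, -0.46, -0.69 and 0.00 after 1 h and -0.42, -0.75 and -0.75 after 3 h. At 6 h they were -1.03, -1.31 and -1.22 and at 9 h -1.06, -1.01 and -1.14. The arrays of 1 h and 3 h all lay above those of 0 h, and those of 6 h and 9 h all below. The gene was called in the F-test and between 1 h and 6 h, at -0.80 ± 0.18 (limma adjusted P-value 0.0049), and not against 0 h at any time-point.

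Type VI collagen forms beaded filaments close to cells, and its 3 chains did not move as one. Col6a1 had log2 levels of 5.29, 5.32 and 5.29 at 0 h, 5.26, 5.01 and 5.07 after 0.5 h, 5.19, 5.10 and 5.75 after 1 h and 5.23, 5.13 and 5.05 after 3 h. At 6 h it had 4.90, 4.85 and 4.99 and at 9 h 4.98, 4.99 and 4.95. Apart from those of 1 h, all later arrays were below the 0 h arrays, the 1 h arrays spread to both sides, but no contrast with 0 h was called (limma adjusted P-value 0.0446 at 6 h). The fall from 1 h to 6 h, -0.44 ± 0.13, was called, and 9 of 31 alternatives lost it, among them quantile normalization, the shift to the median and leaving out 1 h replicate 3, 6 h replicate 1 or 6 h replicate 2. Col6a2 was not called at any time-point, with levels of 1.21, 1.03 and 1.23 at 0 h and 1.19, 1.20 and 1.25 after 9 h. Col6a3 rose instead, from 0.68, 0.61 and 0.43 at 0 h to 0.91, 0.86 and 1.16 after 6 h and 1.22, 1.06 and 0.88 after 9 h, without overlap. Its log2 change was 0.40 ± 0.12 and 0.48 ± 0.12 (limma adjusted P-values 0.0257 and 0.00808), and a shift to the median of each array ended both calls. Leaving out 9 h replicate 1 ended the call at 9 h, and leaving out 0 h replicate 2, 0 h replicate 3 or 6 h replicate 3 ended the one at 6 h.

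**Figure D5:**
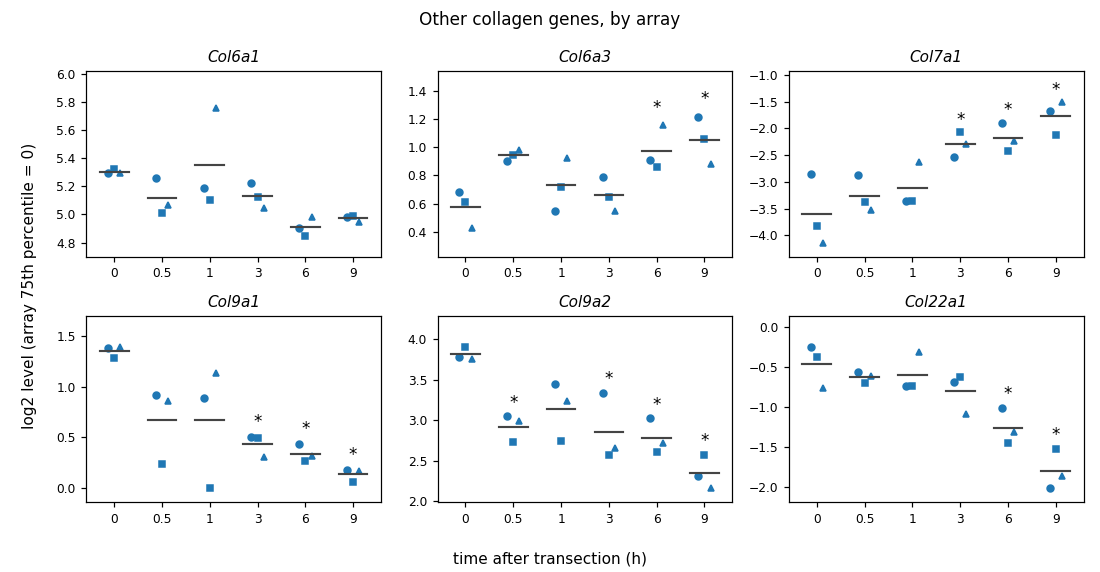
Log2 levels (vertical axis, 75th percentile of the array at 0, a separate range for each gene) of 6 other collagen genes by time after transection (horizontal axis, h), drawn with the same symbols, bars and asterisks as the fibrillar genes. Col7a1 and Col6a3 rose, Col9a1, Col9a2 and Col22a1 fell, and the 1 h mean of Col6a1 was raised by 1 array at 5.75.

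The remaining other collagens gave few calls. Col20a1, a dim gene of the same family as type IX, had log2 levels of -4.58, -4.75 and -4.66 at 0 h and -4.16, -3.71 and -3.07 after 9 h, and all 15 later arrays were above those of 0 h. It was called higher at 9 h at 1.01 ± 0.32 (limma adjusted P-value 0.0259) but not in the F-test, and quantile normalization or leaving out any array of 0 h, 9 h replicate 2 or 9 h replicate 3 ended the call. Col14a1 and Col16a1, which bind the surface of fibrils, and Col8a1, Col8a2 and Col10a1, which form short-chain networks, were not called. Their 9 h changes lay between -0.28 for Col14a1 and 0.39 for Col8a2. A second, dimmer probe of Col14a1 was called lower at 9 h, at -0.62 (limma adjusted P-value 0.00698).

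Genes that make, trim and bind collagen were taken as lists, and their counts at 9 h are to be read beside 15.2% lower and 16.0% higher over all gene names. Of 18 genes for chain modification and folding, 8 were lower and 2 were higher at 9 h, with a median log2 change of -0.20 beside 0.02 over all gene names. The prolyl 4-hydroxylase subunits that steady the helix split. P4ha1 and P4ha2 fell by 0.57 and 0.88 on the log2 scale, whereas P4ha3 rose from -0.60, -0.48 and -1.32 at 0 h to 0.09, 0.35 and 0.15 after 6 h and 0.85, 0.42 and 1.12 after 9 h. Its log2 change was 1.60 ± 0.21 at 9 h (limma adjusted P-value 9.04e-05), with no overlap of the 9 h and 0 h arrays. Leprel2, a prolyl 3-hydroxylase, fell from 5.05, 5.29 and 4.91 at 0 h to 4.25, 3.83 and 3.92 after 9 h, a log2 change of -1.08 ± 0.14 (limma adjusted P-value 8.47e-05). The other higher gene was Glt25d2, a collagen galactosyltransferase, at 1.24 ± 0.40, not called in the F-test and lost when any 1 of 9 arrays was left out. Serpinh1, the chaperone HSP47 that attends procollagen, changed by -0.50 ± 0.09 (limma adjusted P-value 0.000714).

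Of 12 genes for procollagen cleavage and cross-linking, 6 were lower and 1 was higher at 9 h, with a median log2 change of -0.53. Lox, the enzyme that starts the cross-links, changed by -0.61 ± 0.09, and Bmp1, which cuts the carboxyl propeptide, by -0.51 ± 0.11 (limma adjusted P-values 0.000239 and 0.00303). Adamts14, which removes amino propeptides, was down already at 3 h, at -1.14 ± 0.24 (limma adjusted P-value 0.00651). Its relative Adamts3 was the higher gene, at 1.37 ± 0.43 at 9 h, was not called in the F-test, and lost its call without any array of 0 h or 9 h replicate 3. Proteoglycans and other partners gave 11 lower and 0 higher of 14, with a median of -0.63. Fmod, fibromodulin, which binds type I fibrils, had log2 levels of 5.77, 5.63 and 5.12 at 0 h, 4.43, 4.62 and 4.56 after 0.5 h and 3.68, 3.38 and 4.08 after 9 h. It was called lower at each time-point, at 0.5 h not without 0 h replicate 2, and changed by -1.79 ± 0.19 at 9 h (limma adjusted P-value 1.78e-05). Kera, keratocan, changed by -2.57 ± 0.32 and Aspn, asporin, by -1.31 ± 0.17 at 9 h (limma adjusted P-values 6.37e-05 and 7.94e-05). Quantile normalization gave medians of -0.24 for folding, -0.35 for cross-linking and -0.47 for the partners. There 7 of 18, 5 of 12 and 9 of 14 were lower, beside 16.7% of all gene names on that scale.

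Collagen receptors gave 2 lower (Itga1 and Itga11) and 0 higher of 6 tested at 9 h, and the call of Itga11 was lost when any 1 of 10 arrays was left out. Of 13 growth factors and signal carriers that drive collagen synthesis, 3 were higher and 2 were lower at 9 h, beside the same 16.0% and 15.2% of all gene names, with a median of 0.02. Inhba, an activin chain, rose from -1.28, -0.91 and -1.27 at 0 h to 0.25, 0.16 and 0.90 after 9 h, a log2 change of 1.59 ± 0.28 (limma adjusted P-value 0.000863). Tgfb1 and Pdgfa were the other higher genes, at 0.41 ± 0.13 and 0.63 ± 0.10, the former lost when any 1 of 7 arrays was left out, while Tgfb3 and the receptor Tgfbr1 were lower, at -0.70 ± 0.14 and -0.61 ± 0.14. Quantile normalization gave 2 higher and 3 lower, beside 13.6% and 16.7% of all gene names on that scale. Ctgf, of the same list, was called in the F-test with an early change of at least 2-fold. Its log2 levels were 3.39, 3.22 and 1.92 at 0 h and 4.52, 3.97 and 4.10 after 1 h. After 9 h they were 3.41, 2.65 and 3.60, overlapping those of 0 h.

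Sequence ahead of the genes was available in the RefSeq table for 27 of the 34 collagen genes on GRCr8. In the 250 bases before the start, on either strand, GGGCGG was found for 17 of 27 collagen genes, beside 30.5% of all 33469 promoters of the table. It was found for 6 of 8 fibrillar, 5 of 7 basement membrane and 6 of 12 other genes. CCAAT was found for 8 of 27, beside 34.0%, and TATAAA for 3 of 27, beside 12.9%. CCAAT can share end letters with either of the other 2 strings on one strand or the other, and a match is a description of the window, not of a bound site. Col1a2 was the fibrillar gene whose window held TATAAA. The first 110 bases of that window, chr4:33518307-33518416 with the RefSeq start at 33518557 on the plus strand, are shown because this gene fell at 6 h and 9 h, with TATAAA and, on the other strand, CCAAT in capitals.
Col1a2 upstream: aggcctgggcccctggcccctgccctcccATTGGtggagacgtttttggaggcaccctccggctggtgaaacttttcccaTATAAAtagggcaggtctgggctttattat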

How the data were processed

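Proximal nerve segments of 6 time-points were measured on 18 one-colour Agilent arrays. Per the file headers, Feature Extraction 10.5.1.1 made the deposited processed intensity of each spot, corrected for background. A matrix of log2 values, deposited with the scans and holding 1 distribution on all arrays, was used as an alternative. The normalization behind it is not given in the sources used here. Control spots and 58 to 179 outlier spots an array were left out, and spots of a probe were averaged. The log2 intensity less the 75th percentile of each array was fitted in limma 3.58.1 (R 4.3.3) over all 18 arrays, with time-point as the only term and an F-test on 5 degrees of freedom. Probes well above background on every array of at least 1 time-point were tested. Median signal was 145.2 to 264, and precision is limited by the number of arrays. The fit was tested on simulated data.

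The collagen genes and all lists were chosen with earlier results of these data known. Values on every array are given for the 14 genes with the largest absolute change against 0 h among those called in the F-test and well above background on all 18 arrays, and for Col1a1, Col1a2, Col3a1, Col4a1, Col4a2, Col5a1, Col6a1 and Col15a1. Genes of the lists were named where called in the F-test with a change of at least 2-fold, or as defining markers, and those named beyond that (P4ha1, P4ha2, Serpinh1, Lox, Bmp1, Itga1, Itga11, Tgfb1, Tgfb3, Tgfbr1, Pdgfa, Glt25d2, Adamts3, Dcn, Lum, Mfap5, Ly6c and the markers of SCs) were picked after their values were seen. Some markers of SCs are not reported here. Sequences came from the scanner files (rn4) and from RefSeq (GRCr8).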

Additional observations from a re-analysis of the deposited data

How the results depend on the processing

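Under alternative settings the number of collagen genes called changed as follows. The F-test called 4 with normexp correction and 5 at a change of at least 2-fold, in place of 18. The share of all gene names called in the F-test was not counted under the alternative settings. At 0.5 h, 4 became 1 with quantile normalization, the deposited matrix or only the 2 time-points' arrays, and 0 with normexp or the 2-fold limit. The share of collagen genes there fell from 12.5%, beside 6.09% of all gene names, to 3.12%, beside 4.77%, 4.79% and 3.81%. At 1 h, 1 call, 3.12% beside 5.72% of all gene names, became 2 with quantile normalization or the filter set to all 18 arrays. It also became 2 with slide as a random block or a trended and robust prior. In that order these were 6.25%, 6.67%, 6.25% and 6.25%, beside 5.08%, 8.45%, 6.05% and 6.78%, with 1 higher and 1 lower in each. A shift to the median gave 3, 9.38% beside 7.82%. Normexp and the 2-fold limit gave 0, beside 0.735% and 2.18%. With only the 2 time-points' arrays the 1 call was higher, and that of Col4a5 was lost. At 3 h, 4 became 2 with normexp or only the 2 time-points' arrays and 1 with the 2-fold limit, which were 6.25% beside 3.62% and 8.49% of all gene names, and 3.12% beside 3.63%. At 6 h, 12 became 7 with quantile normalization or the deposited matrix, 2 with normexp and 3 with the 2-fold limit. These were 37.5% of the collagen genes and then 21.9%, 6.25% and 9.38%, beside 6787 of 27202 gene names and then 24.6% (24.5% in the matrix), 6.32% and 6.54%. At 9 h, 17 became 6 with normexp or the 2-fold limit, 18.8% beside 9.36% and 2722 of 27202 gene names. Between 1 h and 6 h, 14 became 6 with quantile normalization, the deposited matrix or only the 2 time-points' arrays, 8 with a shift to the median, 2 with normexp and 0 with the 2-fold limit. There 18.8% of the collagen genes were called with quantile normalization, beside 24.1% of all gene names, in the matrix beside 24.0% and with the 2 time-points' arrays beside 12.3%, and normexp called 6.25% beside 6.33%. The fibrillar median between 1 h and 6 h was -0.36 with quantile normalization, -0.34 in the deposited matrix and -0.40 with normexp. At 6 h it was -0.15, -0.57 after a shift to the median and -0.13 in the matrix, and at 9 h -0.28, -0.70 and -0.25. The cause was not tested.

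Leaving out 1 array at a time gave 14 to 21 calls in the F-test, 0 to 5 at 0.5 h, 1 to 2 at 1 h, 1 to 5 at 3 h, 10 to 14 at 6 h, 13 to 19 at 9 h and 9 to 15 between 1 h and 6 h. The share of all gene names called moved as well, from 1.98% to 8.26% at 0.5 h, 2.75% to 8.30% at 1 h and 7.29% to 16.4% at 3 h. It was 19.4% to 27.5% at 6 h, 24.3% to 33.5% at 9 h and 20.1% to 25.2% between 1 h and 6 h. The fibrillar median then lay between -0.46 and -0.38 at 6 h, between -0.60 and -0.47 at 9 h, and between -0.60 and -0.48 in the contrast of 6 h with 1 h. That of the basement membrane ranged from -0.35 to -0.0143, from -0.45 to -0.12 and from -0.29 to 0.13, and that of the others from -0.30 to -0.18, from -0.12 to -0.03 and from -0.56 to -0.16. A second probe, a setting added after the data were seen, reversed Col4a1 at 0.5 h (0.0702) and Col4a5 at every time-point (0.87, 0.93, 0.74, 1.34 and 1.53, in order of time). Leaving out arrays was also added later for the list genes.

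With a replicate block the F-test count stayed at 18, and those of the contrasts, in the order given, at 4, 1, 4, 12, 17 and 14, but at 9 h the call of Col18a1 was lost and Col4a4 was called lower in its place. Deviations of same-numbered arrays correlated between -0.26 and 0.56, with a median of 0.07 beside 0.007 for arrays of different numbers. This range cannot exclude a factor shared by same-numbered arrays, and the sample titles give only the number. With a scan day block the F-test, then over contrasts within a day, called 13. That block could not be fitted for 1 h, 3 h, 6 h or 9 h against 0 h. With a shift to the median, calls over all gene names at 0.5 h were 688 higher and 1370 lower in place of 1188 and 469, and at 9 h 2997 and 5674 in place of 4358 and 4144. Dim genes such as Col4a3 and Col20a1 are limited by signal over background, and 3 arrays a time-point limit all results.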
